A study of Saccharomyces cerevisiae with 6 samples.

Results

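GAD1, UGA1, UGA2, UGA4, UGA3 and DAL81, which encode the enzymes of the yeast γ-aminobutyrate (GABA) shunt, the GABA permease and 2 transcriptional activators of GABA genes, were examined in budding yeast that overexpressed the translation elongation factor eEF1A. These 6 genes were picked by name, with earlier results of the same arrays known, from the 5684 Saccharomyces cerevisiae genes measured, and each is read by 1 probe set on the Affymetrix Yeast 2.0 array. Because the contrast of eEF1A cells with control cells was known when the genes were picked, their differences are given as descriptions without a test. RNA came from log phase cells grown at 30°C in synthetic medium lacking leucine, started at an optical density of 0.1 and collected at 0.7. The eEF1A group (replicates 2 and 3, labelled as enlarged cells) carried a multi-copy 2 µ LEU2 plasmid with TEF1, the gene of eEF1A, which by the study's methods was driven by the GPD promoter. The control group (replicates 1 to 4, labelled as cells of normal size) carried a 2 µ LEU2 plasmid without TEF1. The methods describe triplicate biological cultures, whereas the labels give 2 eEF1A and 4 control arrays, and all 6 were used.

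The groups differed in more than the plasmid. All 7 genes read as markers of a cells fell, with means of 5.70 to 7.77 in eEF1A cells and 7.96 to 12.81 in control cells on the log2 scale. All 4 markers of α cells rose, with means of at least 11.27 in eEF1A cells and at most 7.65 in control cells. The methionine synthesis gene MET17 had log2 values of 11.47 and 11.62 on the eEF1A arrays, against 4.90, 5.22, 4.98 and 4.75 on the control arrays, and the uracil synthesis gene URA3 had 6.59 and 5.84, against 3.34, 3.39, 3.72 and 3.47. For both genes the control means lay under 5.18, the level below which 95% of the Schizosaccharomyces pombe probe sets on the same chip lay, taken here as background. Mating type, nutritional markers and eEF1A cannot be told apart in any difference below, and neither can fewer expressing cells and less RNA per cell. TEF1 and TEF2, which encode the same protein, share a probe set (TEF1/TEF2) that read 14.51 and 14.49 in eEF1A cells, against 14.49, 14.51, 14.48 and 14.49 in control cells, near the top of the scale (adjusted p = 0.955 from limma), so that the array gave no sign of the extra TEF1. Arrays correlated at 0.996 within the eEF1A group, at 0.998 to 0.999 within the control group and at 0.975 to 0.977 between the groups. On eEF1A replicate 2, 6 of 18 bright probe sets for hybridisation controls, which are added to every sample, differed from the control mean by -1.19 to -1.76 on the log2 scale. On eEF1A replicate 3, 0 of 18 were low in this way, and all 18 lay above the control mean, by 0.05 to 0.48. The other bright probe sets for the same added transcripts (bioC, bioD and cre) differed by only -0.10 to 0.03 on eEF1A replicate 2. The added RNA itself was therefore not shown to be low on that array. Values without eEF1A replicate 2 are also given.

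The GABA shunt leads from glutamate to succinate and goes round a part of the tricarboxylic acid cycle. Glutamate decarboxylase (Gad1) makes GABA from glutamate, GABA transaminase (Uga1) passes its amino group to 2-oxoglutarate and leaves succinate semialdehyde, and succinate semialdehyde dehydrogenase (Uga2) oxidises that to succinate. In yeast, external GABA can serve as a nitrogen source. It enters through the permease Uga4 as well as through the general amino acid permease Gap1 and the proline permease Put4, and it induces UGA1, UGA2 and UGA4 through the zinc cluster proteins Uga3 and Dal81 (also called Uga35). Dal81 also acts in the induction of allantoin and urea genes and of amino acid permease genes.

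Values are log2 expression values as deposited by the authors after robust multi-array averaging (RMA), and a difference is eEF1A minus control on that scale, with the standard error from limma. Levels of separate genes cannot be set against each other, since each probe set has its own brightness. All 6 genes lay above background in both groups. Of the 6, 5 had both eEF1A values above every control value, and UGA4 overlapped. After each array was scaled to a common median, or to a common distribution, over S. cerevisiae probe sets alone, 4 of the 6 did, as DAL81 then overlapped too, and without either eEF1A array all 6 lay outside the controls. Over all genes, 35.9% had both eEF1A values above every control value and 21.6% had both below. The median difference of the 6 genes was 0.42, beside 0.04 for all genes. The picking of the genes used this contrast, so nothing is read from the comparison with all genes.

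**Figure D1:**
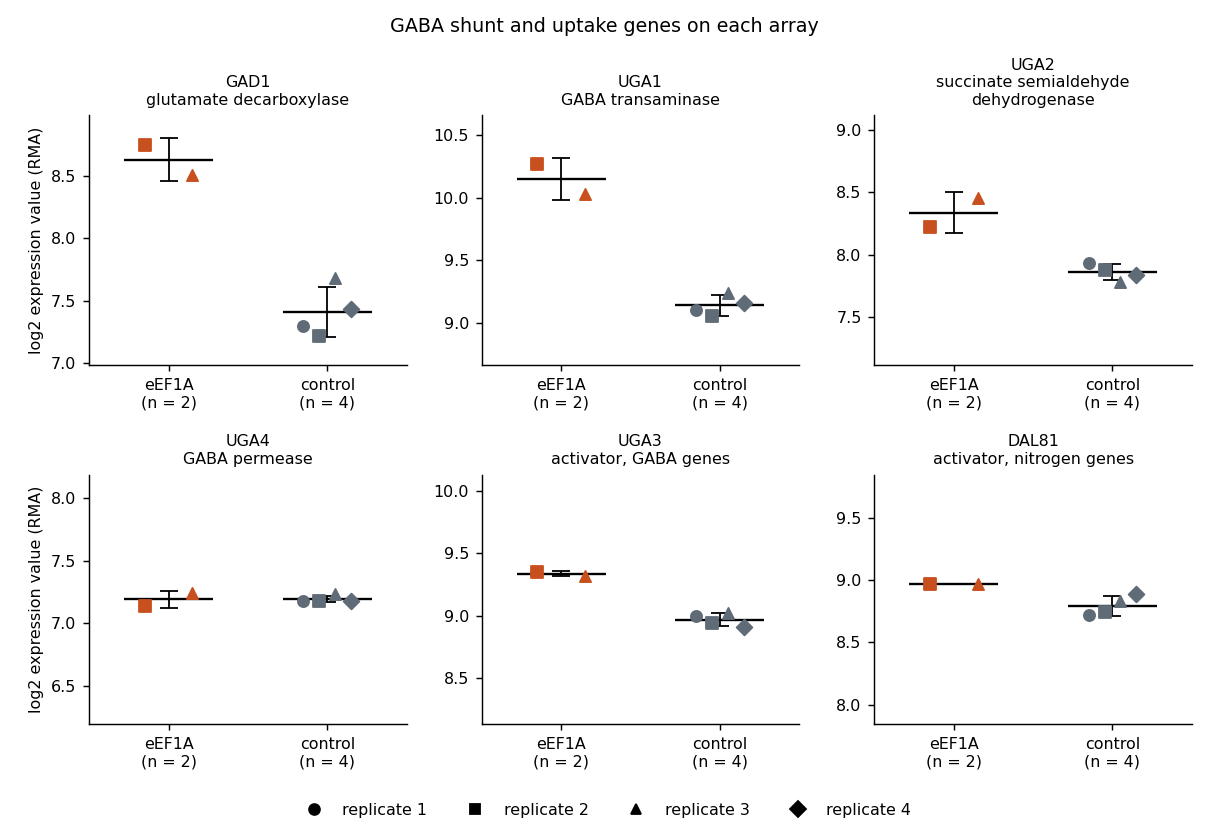
Log2 expression value (vertical axes, each spanning the same number of log2 units) of the 6 GABA genes on the 2 eEF1A arrays (orange) and the 4 control arrays (grey), with the symbol giving the replicate number, the line the group mean and the bar its SD. GAD1 and UGA1 lie furthest from the control arrays, at differences of 1.22 and 1.01, while the groups overlap for UGA4 at -0.01.

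GAD1 (YMR250W), the glutamate decarboxylase gene at the entry of the shunt, had log2 values of 8.75 and 8.51 on the eEF1A arrays, against 7.30, 7.22, 7.68 and 7.43 on the control arrays. Both eEF1A values were above the highest control, control replicate 3, by at least 0.83. The means were 8.63 ± 0.17 (SD, n = 2) in eEF1A cells and 7.41 ± 0.20 (SD, n = 4) in control cells, a difference of 1.22 (standard error 0.13, 95% interval 0.93 to 1.51) or 2.33-fold. This was the highest difference among the 6 genes and the 53rd highest of the 5684 genes. The chip's annotation, on the October 2003 version of the yeast genome, aligns its probe sequence to chromosome XIII from 770799 to 772557 on the plus strand.

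UGA1 (YGR019W), which encodes the GABA transaminase, had values of 10.27 and 10.03 in eEF1A cells, against 9.10, 9.05, 9.24 and 9.16 in control cells. The groups were 0.78 apart at their nearest arrays, and the control arrays lay within 0.20 of each other. Its means were 10.15 ± 0.17 (SD, n = 2) in eEF1A cells and 9.14 ± 0.08 (SD, n = 4) in control cells, a difference of 1.01 (standard error 0.08, 95% interval 0.82 to 1.20) or 2.02-fold, the 82nd highest of all genes. The probe set maps to chromosome VII from 525229 to 526645, plus strand.

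UGA2 (YBR006W), the succinate semialdehyde dehydrogenase gene at the last step, stood less far apart. It read 8.22 and 8.45 on the eEF1A arrays, against 7.93, 7.88, 7.78 and 7.84 on the control arrays. Both eEF1A values were above all controls, the nearer by 0.29. Its difference was 0.47 (standard error 0.07, 95% interval 0.30 to 0.64) or 1.39-fold, with means of 8.33 ± 0.16 (SD, n = 2) in eEF1A cells and 7.86 ± 0.06 (SD, n = 4) in control cells, and it ranked 457th. The probe set maps to chromosome II from 246970 to 248464, plus strand. The 3 enzyme genes of the shunt were thus all higher in eEF1A cells, by 1.22, 1.01 and 0.47 in the order of their reactions.

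UGA4 (YDL210W), the GABA permease gene, overlapped between the groups. It read 7.14 and 7.24 in eEF1A cells, against 7.18, 7.18, 7.23 and 7.18 in control cells, so that the eEF1A values lay on either side of the controls. The means were 7.19 ± 0.07 (SD, n = 2) in eEF1A cells and 7.19 ± 0.03 (SD, n = 4) in control cells, and the 95% interval of the difference of -0.01 (standard error 0.05) ran from -0.13 to 0.11. As a description of genes picked with this contrast known, that interval lay under those of the enzyme genes, which start at 0.30 or above. UGA4 ranked 3341st. Its probe set maps to chromosome IV from 84270 to 85986, plus strand.

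The activator genes were higher by smaller amounts. UGA3 (YDL170W), whose product binds the promoters of the UGA genes, read 9.35 and 9.32 in eEF1A cells, against 9.0, 8.94, 9.02 and 8.91 in control cells. The eEF1A arrays were 0.03 apart and stood at least 0.30 above the controls. The means were 9.33 ± 0.02 (SD, n = 2) in eEF1A cells and 8.97 ± 0.05 (SD, n = 4) in control cells, a difference of 0.36 (standard error 0.05, 95% interval 0.24 to 0.49) or 1.29-fold. The probe set maps to chromosome IV from 156318 to 157905, plus strand.

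DAL81 (YIR023W), the broader activator, read 8.97 and 8.97 in eEF1A cells, against 8.72, 8.74, 8.83 and 8.89 in control cells. Both eEF1A values were above the controls, but the gap to control replicate 4 was only 0.08, less than the 0.18 over which the controls themselves spread. Its difference was 0.18 (standard error 0.06, 95% interval 0.04 to 0.32) or 1.13-fold, with means of 8.97 ± 0.00 (SD, n = 2) in eEF1A cells and 8.79 ± 0.08 (SD, n = 4) in control cells. After either scaling over S. cerevisiae probe sets alone, its lower eEF1A value of 8.89 on replicate 2 came under control replicate 4, and the groups overlapped. The probe set maps to chromosome IX from 399773 to 402686, plus strand.

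The 6 genes did not move alike from array to array. GAD1 and UGA1 shared the order of the control arrays, with control replicate 3 highest, then 4, 1 and 2, and both were higher on eEF1A replicate 2 than on eEF1A replicate 3, by 0.24 and 0.25. UGA2 ran the other way on the eEF1A arrays, 0.23 higher on replicate 3, and had control replicate 1 highest and control replicate 3 lowest. UGA4 and UGA3 shared another control order (3, 1, 2, 4), and DAL81 a further one (4, 3, 2, 1). GAD1 had the widest control range, 0.46, and UGA4 the narrowest, 0.05. These orders rest on 4 arrays and are given as a description.

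Without eEF1A replicate 2, on which 6 of the 18 hybridisation control probe sets were low, the differences were 1.10 for GAD1, 0.89 for UGA1, 0.59 for UGA2, 0.05 for UGA4, 0.35 for UGA3 and 0.18 for DAL81. Without eEF1A replicate 3 they were 1.34, 1.14, 0.36, -0.06, 0.38 and 0.18 for the genes in the same order. GAD1 and UGA1 stayed the highest pair of the 6 in both cases. UGA4 changed sign between them and, with a single eEF1A array, lay just outside the control values on opposite sides. The same scalings to a common median and a common distribution moved UGA4 to -0.06 and -0.13 and lowered the other 5 genes without changing their direction. Other settings of the fit gave differences within the range that leaving out 1 array gave.

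**Figure D2:**
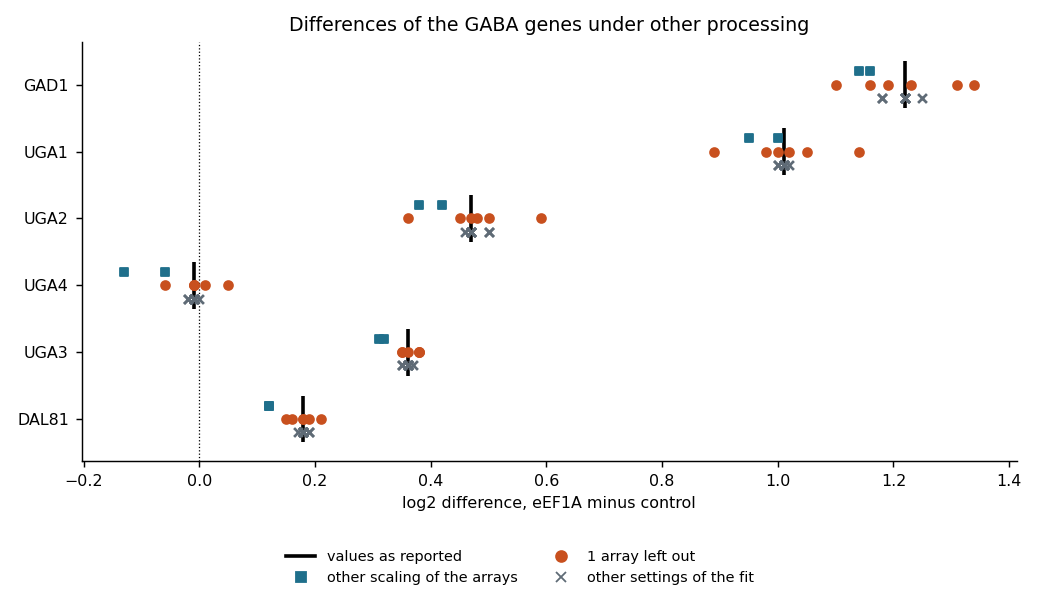
Log2 difference, eEF1A minus control (horizontal axis), of each GABA gene as reported (black line), after other scalings of the arrays (squares), with 1 array left out (circles) and with other settings of the fit (crosses). GAD1 ranges from 1.10 to 1.34, UGA1 from 0.89 to 1.14 and UGA2 from 0.36 to 0.59, all right of the dotted line at 0, whereas UGA4 ranges from -0.13 to 0.05.

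The genes around the shunt were then read as 6 lists, picked by function with earlier results of these data known. For these lists, rose and fell mean an adjusted p under 0.05 in the limma fit over all 5684 genes. That rule called 27.7% of all genes higher and 15.6% lower in eEF1A cells, and a list is described by its counts and its median beside these shares and the median of 0.04 over all genes. By the stricter rule of the study, a B-statistic (log odds of a change) above 1.5, 6.14% of all genes were higher and 2.53% lower.

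Of 13 genes that make or use glutamate and 2-oxoglutarate, the substrates of Gad1 and Uga1, 8 rose, 0 fell and 5 did not pass, with a median difference of 0.24, and 6 were higher by the B-statistic. CIT2, the peroxisomal citrate synthase gene, read 11.90 and 11.79 in eEF1A cells, against 10.88, 10.69, 10.66 and 10.61 in control cells, a difference of 1.13 (standard error 0.08, adjusted p = 3.16e-05 from limma). IDH2 and IDH1 encode the subunits of the mitochondrial NAD-dependent isocitrate dehydrogenase, which makes 2-oxoglutarate. IDH2 rose by 1.09 (standard error 0.06, adjusted p = 9.94e-06 from limma) with values of 11.96 and 11.85, against 10.77, 10.75, 10.90 and 10.84 in control cells. IDH1 rose by 1.01 (standard error 0.07, adjusted p = 2.63e-05) with 10.74 and 10.60, against 9.65, 9.56, 9.70 and 9.74. The mitochondrial citrate synthase gene CIT1 rose by 0.84 (standard error 0.09) and the aconitase gene ACO1 by 0.70 (standard error 0.06).

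GLN1, which encodes glutamine synthetase and so uses glutamate, read 13.20 and 13.22 in eEF1A cells, against 12.52, 12.50, 12.69 and 12.62 in control cells, a 1.54-fold rise (adjusted p = 2.24e-04 from limma). GLT1, the glutamate synthase gene, rose by 0.19 (standard error 0.05, adjusted p = 0.0151 from limma). Its call was lost without control replicate 4 (adjusted p = 0.0525 from limma) and with array weights (adjusted p = 0.058). It was also lost with the replicate number as a block (adjusted p = 0.394 from limma) and with only the arrays numbered 2 and 3 (adjusted p = 0.173). The glutamate dehydrogenase genes did not pass. GDH1, the main biosynthetic form, differed by 0.08 (95% interval -0.12 to 0.29), GDH3 by 0.13 (-0.19 to 0.45) and GDH2, which breaks glutamate down, by 0.10 (-0.10 to 0.29). Among the NADP-dependent isocitrate dehydrogenases, mitochondrial IDP1 rose by 0.24 (standard error 0.05), cytosolic IDP2 differed by -0.01 (95% interval -0.44 to 0.42) and peroxisomal IDP3 by 0.17 (adjusted p = 0.0658, or 0.0465 without control replicate 3, from limma). IDP1 lost its call with the replicate number as a block (adjusted p = 0.185 from limma) and with only the arrays numbered 2 and 3 (adjusted p = 0.0734). In each of these refits 6 of the 13 genes rose, against 8 as reported.

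The steps that the shunt goes round, and the enzyme that uses its succinate, were nearer to the controls. Of 9 such genes 1 rose, 0 fell and 8 did not pass, with a median of 0.07. KGD1 and KGD2, of the 2-oxoglutarate dehydrogenase complex, differed by 0.19 (95% interval 0.02 to 0.36, adjusted p = 0.0664 from limma) and 0.21 (95% interval 0.00 to 0.42, adjusted p = 0.0973), and LPD1, the subunit that this complex shares with pyruvate dehydrogenase, by 0.07. The succinyl-CoA ligase genes LSC1 and LSC2 differed by 0.04 (95% interval -0.19 to 0.27) and 0.15 (95% interval -0.10 to 0.39). SDH2, the iron-sulphur subunit gene of succinate dehydrogenase, rose by 0.30 (standard error 0.06, adjusted p = 0.0041 from limma), with 9.43 and 9.29 in eEF1A cells, against 9.08, 9.01, 9.10 and 9.04 in control cells. SDH1, SDH3 and SDH4 differed by -0.01, -0.05 and -0.09 and did not pass.

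This list depended on single arrays. Without eEF1A replicate 3 it had 5 rises, which were KGD1, KGD2, LSC1, LSC2 and SDH2, and without control replicate 3 it had 2, KGD2 (adjusted p = 0.0425 from limma) and SDH2. Without eEF1A replicate 2 it had 1 rise, and SDH4 fell by 0.23 (adjusted p = 0.0453). LSC1, LSC2 and SDH4 each had eEF1A replicate 2 above eEF1A replicate 3, as LSC2 shows with 9.97 and 9.54 in eEF1A cells, against 9.59, 9.59, 9.67 and 9.60 in control cells.

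**Figure D3:**
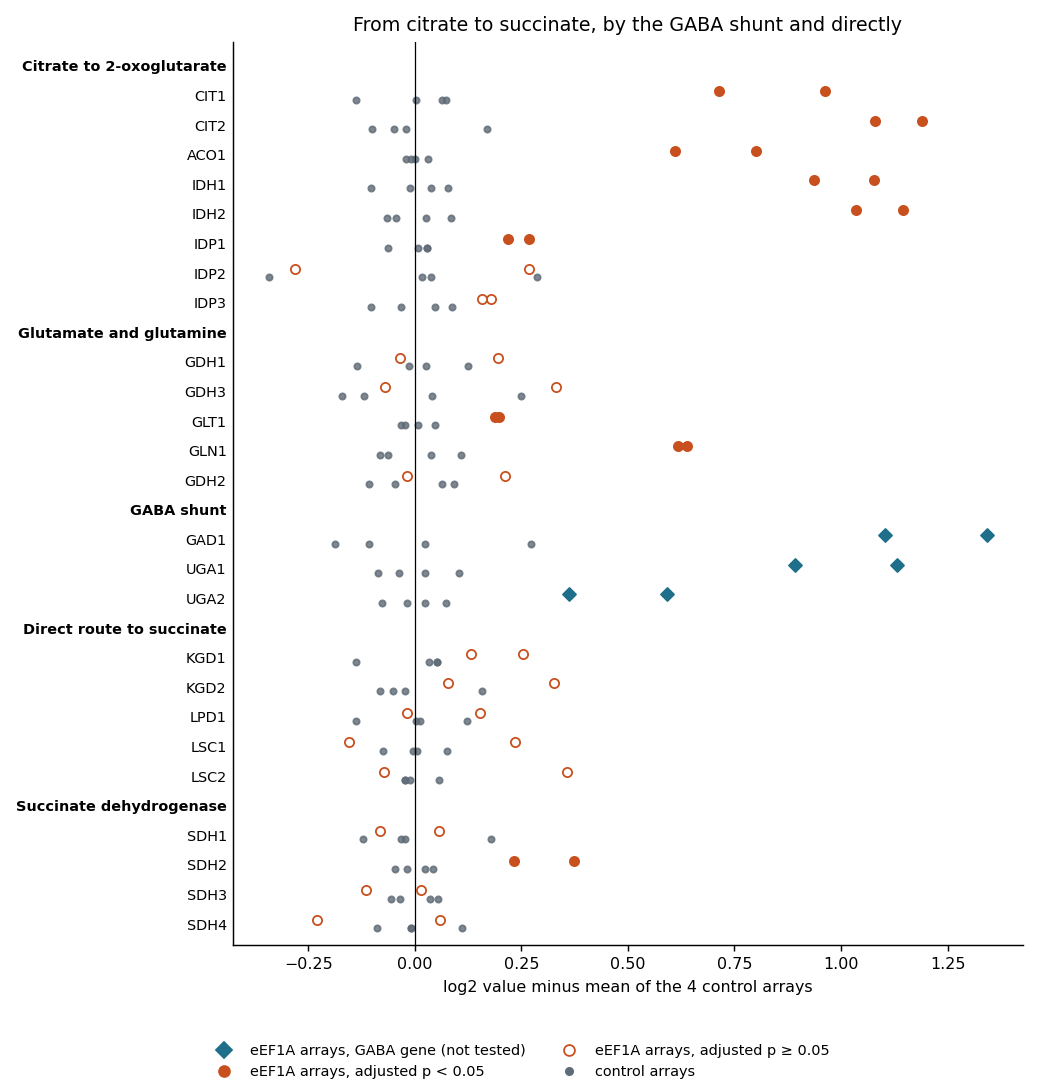
Log2 value minus the mean of the 4 control arrays (horizontal axis) for genes on the routes from citrate to succinate, with control arrays in grey, eEF1A arrays in orange (filled where the limma adjusted p was under 0.05) and the untested GABA shunt genes as blue diamonds. CIT2, IDH1, IDH2, GAD1 and UGA1 have both eEF1A arrays at 0.89 or above, while those of KGD1, KGD2, LPD1, LSC1 and LSC2 stay under 0.4.

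UGA4 is a known target of nitrogen catabolite repression, in which the GATA factors Gln3 and Gat1 activate, and Dal80 and Gzf3 repress, genes for poor nitrogen sources, with Ure2 holding Gln3 back. Of these 5 genes 2 rose, 1 fell and 2 did not pass, with a median of 0.14. GAT1 read 8.63 and 8.33 in eEF1A cells, against 7.89, 8.01, 8.04 and 8.11 in control cells, a difference of 0.47 (standard error 0.09, adjusted p = 0.00455 from limma). GLN3 rose by 0.34 (standard error 0.08, adjusted p = 0.00929), but did not pass after quantile normalization over S. cerevisiae probe sets alone (adjusted p = 0.0549 from limma). DAL80 passed with means of 3.82 in eEF1A cells and 4.10 in control cells, both under background, and no fold is given for it. URE2 differed by 0.14 (adjusted p = 0.183, or 0.0327 without control replicate 3, from limma) and GZF3 by -0.15 (adjusted p = 0.195). GZF3 fell by 0.31 without eEF1A replicate 2 (adjusted p = 0.00796), making 2 falls in the list, and differed by 0.01 without eEF1A replicate 3 (adjusted p = 0.937).

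The other permeases that carry GABA did not rise. GAP1, the general amino acid permease gene, read 7.54 and 6.97 in eEF1A cells, against 7.44, 7.24, 7.71 and 7.48 in control cells, a difference of -0.22 (95% interval -0.60 to 0.17, adjusted p = 0.331 from limma). eEF1A replicate 2 lay among the controls and eEF1A replicate 3 below them, and without eEF1A replicate 2 GAP1 fell by 0.50 (adjusted p = 0.031). PUT4, the proline permease gene, fell by 0.41 (standard error 0.08, adjusted p = 0.00349 from limma), with 5.25 and 5.40 in eEF1A cells, against 5.71, 5.82, 5.60 and 5.78 in control cells, just above the background level of 5.18. With PUT1 and PUT2, the enzymes that turn proline into glutamate, and PUT3, their activator, this list of 5 had 0 rises, 1 fall and a median of -0.11. PUT2 differed by -0.11 and fell by 0.29 without eEF1A replicate 2 (adjusted p = 0.00721), which made 3 falls.

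Genes of the allantoin and urea pathway, in which Dal81 acts, were read next, without a check that each one depends on Dal81. Of 9 genes of allantoin and urea use 1 rose, 0 fell and 8 did not pass, with a median of 0.11. DAL5, the allantoate permease gene, rose by 0.28 (standard error 0.07, adjusted p = 0.0154 from limma), with 7.39 and 7.32 in eEF1A cells, against 7.14, 6.92, 7.15 and 7.09 in control cells. Without eEF1A replicate 2 it did not pass (adjusted p = 0.0646), which left 0 rises. DUR1,2, the urea amidolyase gene, read 8.39 and 7.78 in eEF1A cells, against 7.71, 7.71, 7.83 and 7.78 in control cells. Only eEF1A replicate 2 stood above the controls, and the difference of 0.33 (standard error 0.14) did not pass (adjusted p = 0.0945). DUR1,2, DAL4 and DUR3, which encode an enzyme and 2 permeases, passed without eEF1A replicate 3, and the list then had 4 rises. DAL82, which encodes the pathway's own activator, differed by 0.08, and DAL1, DAL2, DAL3 and DAL7 by 0.00, -0.05, 0.18 and 0.00.

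The amino acid sensor at the cell surface (Ssy1, Ptr3 and Ssy5) releases the factors Stp1 and Stp2, which act with Dal81 on permease genes. Of 13 genes of this system 5 rose, 1 fell and 7 did not pass, with a median of 0.11. BAP2 and BAP3, permease genes for branched-chain amino acids, rose by 0.75 (standard error 0.07, adjusted p = 1.05e-04 from limma) and 0.72 (standard error 0.05, adjusted p = 4.65e-05). BAP3 read 11.05 and 11.18 in eEF1A cells, against 10.38, 10.42, 10.40 and 10.38 in control cells. AGP1, a broad permease gene, rose by 0.51 (standard error 0.10), and DIP5, whose product takes up glutamate and aspartate, by 0.50 (standard error 0.07) with 10.34 and 10.32 in eEF1A cells, against 9.95, 9.69, 9.84 and 9.88 in control cells. GNP1, a glutamine permease gene, fell by 0.39 (standard error 0.08, adjusted p = 0.00495).

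PTR3 was the only sensor gene called, at 0.19 (standard error 0.06, adjusted p = 0.0331 from limma). That call was lost without any 1 of the control arrays (adjusted p of 0.0883, 0.0708, 0.0506 and 0.051 from limma without replicates 1 to 4). It was also lost after quantile normalization (0.07, adjusted p = 0.477 from limma) or median centring (0.13, adjusted p = 0.133) over S. cerevisiae probe sets alone. Array weights (adjusted p = 0.132 from limma) and the replicate number as a block (adjusted p = 0.408) lost it too. The call was lost as well with all probe sets of the chip in the limma fit (adjusted p = 0.0528). With only the arrays numbered 2 and 3 it was not kept either (adjusted p = 0.196 from limma). Without eEF1A replicate 3 the difference of PTR3 was 0.13, and the call was not kept. SSY1, SSY5, STP1 and STP2 differed by -0.07, 0.09, -0.09 and 0.13 and did not pass. TAT1, TAT2 and the peptide permease gene PTR2 differed by 0.03, 0.11 and -0.26. Without eEF1A replicate 3, SSY5 and TAT2 passed as rises and the list had 6. Without eEF1A replicate 2, PTR2 fell by 0.51 (adjusted p = 0.00787) and the list had 5 rises and 2 falls.

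**Figure D4:**
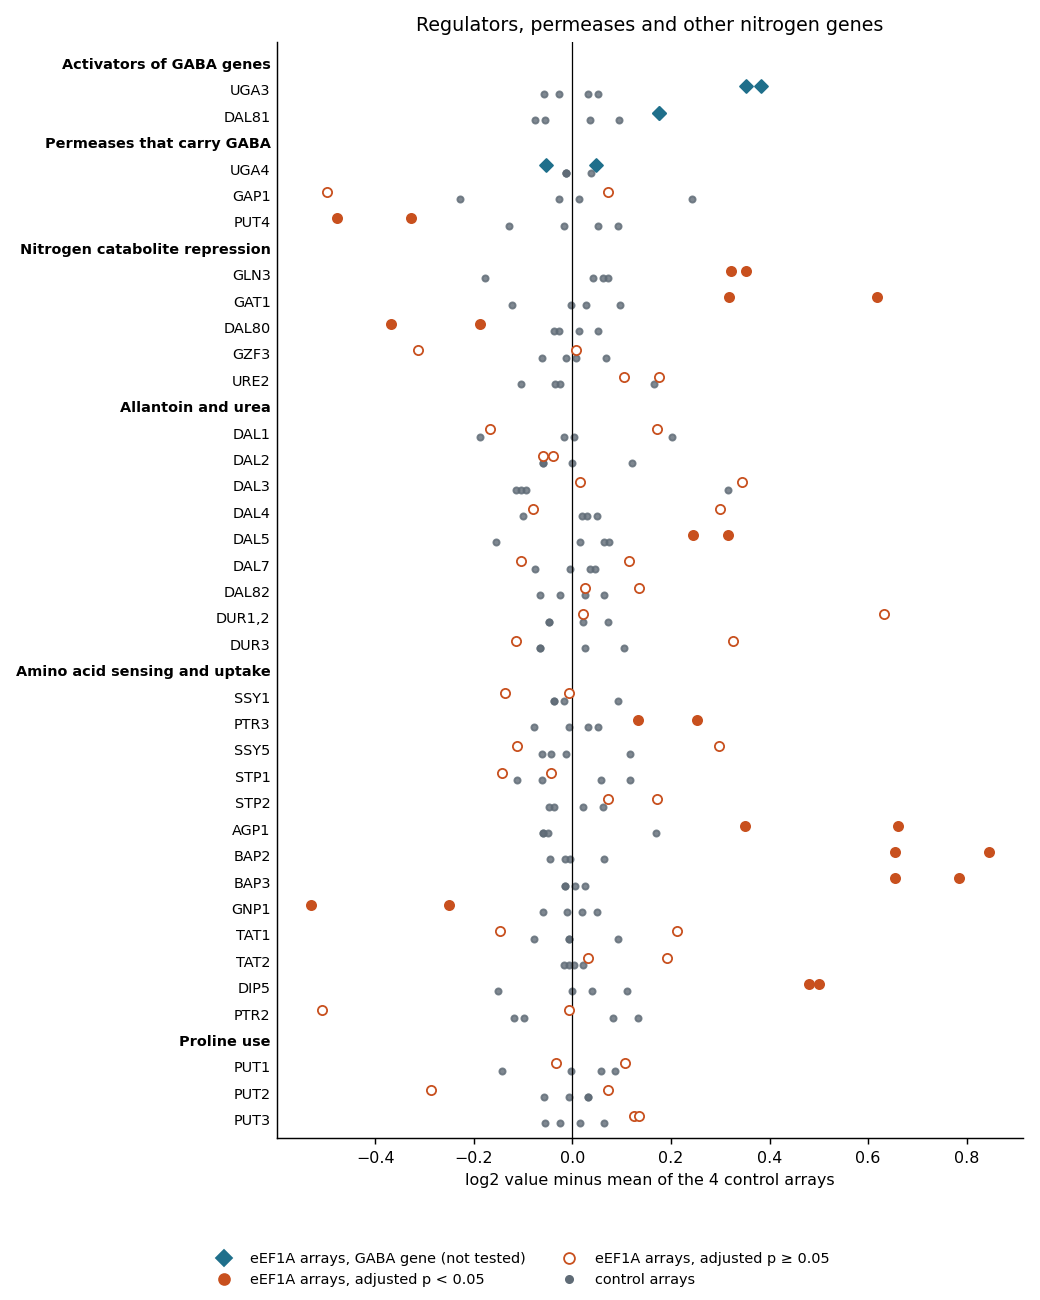
Log2 value minus the mean of the 4 control arrays (horizontal axis) for the activators of GABA genes, permeases that carry GABA, and other nitrogen genes, with control arrays in grey, eEF1A arrays in orange (filled where the limma adjusted p was under 0.05, as for DAL80, which lies under background) and the untested GABA genes as blue diamonds. UGA3 and DAL81 sit right of the controls, and the eEF1A arrays of UGA4 lie on either side of them. BAP2 and BAP3 reach furthest right, at differences of 0.75 and 0.72.

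The genes most like a GABA gene were sought where the difference was above 0.5 and the groups did not overlap, which held for GAD1 and UGA1. Likeness was the Euclidean distance over the 6 arrays after each gene was centred on its control mean. It is given as a description, since the arrays are shared. Nearest to GAD1 were YGP1, which encodes a secreted glycoprotein of the cell wall, at a distance of 0.21, the uncharacterised YLR177W at 0.262 and ECM13 at 0.264, with differences of 1.35, 1.10 and 1.06. YGP1 read 11.85 and 11.65 in eEF1A cells, against 10.31, 10.24, 10.60 and 10.48 in control cells, with the same order of arrays within each group as GAD1.

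Nearest to UGA1 were ARG8, the acetylornithine aminotransferase gene of arginine synthesis, at 0.098, IDH1 at 0.127 and IDH2 at 0.15, with differences of 1.01, 1.01 and 1.09. ARG8 read 11.85 and 11.64 in eEF1A cells, against 10.69, 10.72, 10.81 and 10.70 in control cells. The order of its control arrays was not that of UGA1, since control replicate 1 was lowest, but in both genes eEF1A replicate 2 was the higher.

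The genes on either side of each GABA gene were looked up in a RefSeq table of the R64 assembly, used for order alone, a choice made after the values were seen. Of 12 neighbours 11 were measured, and 5 rose, 3 fell and 3 did not pass, beside 27.7% of all genes called higher and 15.6% lower. GAD1's neighbours, YMR247W-A and GTO3, lay under background in both groups and so cannot show whether they changed with it. UGA1's measured neighbour VMA7, a vacuolar ATPase subunit gene, rose by 0.39 (standard error 0.06, adjusted p = 0.00163 from limma). UGA2's neighbours RCR1 and DSF2 rose by 0.22 and 0.31 (standard errors 0.05 and 0.06), against 0.47 for UGA2.

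UGA4 lay between genes that fell. YDL211C read 7.61 and 7.40 in eEF1A cells, against 8.17, 8.23, 8.24 and 8.12 in control cells, a difference of -0.68 (standard error 0.07, adjusted p = 1.98e-04 from limma). CWC2, a splicing factor gene, read 8.14 and 7.78, against 8.64, 8.73, 8.73 and 8.67, a difference of -0.73 (standard error 0.09, adjusted p = 5.26e-04). For UGA4 itself, between them, the value was -0.01.

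UGA3 is flanked by GLT1, described above, and by UGX2, which rose by 0.72 (standard error 0.16, adjusted p = 0.00818 from limma), with 6.38 and 5.76 in eEF1A cells, against 5.14, 5.43, 5.48 and 5.37 in control cells. The control values of UGX2 lay near the background level of 5.18, with control replicate 1 under it, so the size of its rise is uncertain. DAL81 is flanked by SEC11, a signal peptidase gene, at 0.16 (adjusted p = 0.062, or 0.0146 without eEF1A replicate 3, from limma), and by INA22, which encodes an assembly factor of the mitochondrial ATP synthase and fell by 0.29 (standard error 0.05, adjusted p = 0.00327).

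**Figure D5:**
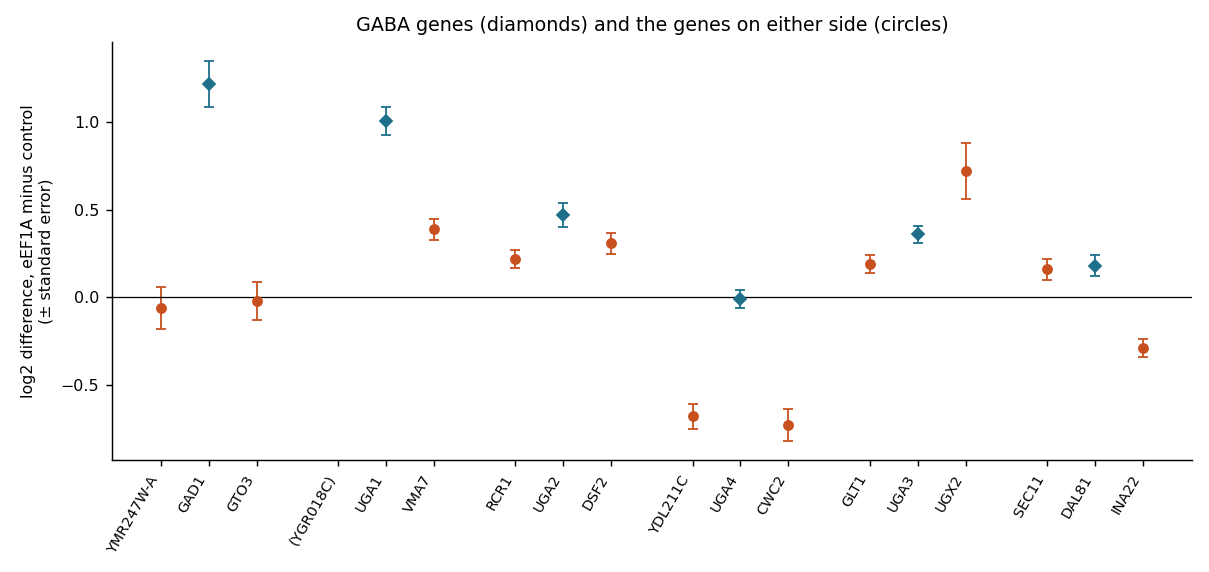
Log2 difference, eEF1A minus control, with its standard error (vertical axis) for each GABA gene (diamonds) and the genes next to it on the chromosome (circles), with YGR018C not measured. UGA4 lies near 0 between YDL211C and CWC2 at -0.68 and -0.73, and GAD1 at 1.22 lies between genes whose values were under background.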

How the data were processed

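Yeast RNA was hybridised to 6 Affymetrix Yeast 2.0 arrays. The authors normalised the arrays with RMA in affylmGUI and deposited log2 values for 10928 probe sets, which were read here. RMA gives every array the same distribution of values, with the probe sets of both yeasts pooled, so a shift of most genes would be reduced. The authors' deposited workbook holds the same log2 values (largest difference 5.00e-09 over 5814 probe sets) and columns of their own comparison (fold changes, B-statistics, p-values), which were not used.

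A linear model with a term for the group was fitted to the 5810 budding yeast probe sets in limma (version 3.58.1, under R 4.3.3) (4 residual and 4.09 prior degrees of freedom, prior proportion 0.01). The probe set with the highest mean stood for each of 26 genes with several, 98 control probe sets were left out, and p-values were adjusted by Benjamini-Hochberg over 5684 genes. Names come from the chip annotation, with 5713 locus tags matched to a RefSeq table of R64, and 71 probe sets name several genes. Where nothing says that arrays came from separate cultures beyond the methods' word triplicate, p-values measure only the spread between these arrays, and their number limits the precision.

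The 6 GABA genes and the lists were chosen with earlier results of these data known. All members of each list could be named, with up to 3 genes of like pattern for each GABA gene whose difference exceeded 0.5 in size without overlap. Control probe sets for added RNA with a mean above 8 were compared between arrays. Alternatives were another scaling, filter, moderation, array weights, probe set summary or threshold (a B-statistic above 1.5, the study's), the replicate number as a block, and each array left out. The chromosome positions are those of the chip annotation, and promoter sequence was not analysed here.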

Additional observations from a re-analysis of the deposited data

Results flagged for a closer look

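In 76 sets of 4 control values, 1 for each GABA, list and marker gene, the array at one end stood apart from the rest by a share of the control range above Dixon's 95% critical value in 5 sets, where chance alone gives about 1 in 20. UGA4 was high on control replicate 3, at 0.864 of a range of only 0.05, which puts 7.23 beside 3 values of 7.18. Control replicate 3 was also high for AGP1 (0.942 of the range, 9.57 beside 9.34, 9.34 and 9.35) and for DAL3, which encodes an enzyme of allantoin breakdown (0.96 of the range, 5.95 beside 5.54, 5.52 and 5.53), and it was low for GLN3 (0.883 of the range, 7.80 beside 8.02, 8.05 and 8.04). KGD1 was low on control replicate 2 (0.897 of the range, 9.33 beside 9.52, 9.50 and 9.52).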

How the results depend on the processing

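GAD1, UGA1, UGA2, UGA3 and DAL81 stayed higher in eEF1A cells under all 16 alternatives that give a value, and UGA4 had either sign. Of the 6 genes, 5 lay outside the control values as reported and 4 after either scaling over S. cerevisiae probe sets alone (DAL81 overlapped). Without either eEF1A array 6 did, but a single array lies outside more easily, and UGA4 did so on opposite sides. With each array left out in turn, UGA1 ranged from 0.89 to 1.14, UGA2 from 0.36 to 0.59 and UGA4 from -0.06 to 0.05. UGA4 was -0.13 and UGA3 0.32 after a repeated quantile normalization of the S. cerevisiae values, and -0.06 and 0.31 after median centring. Over all genes, 1574 were called higher and 886 lower, against 349 and 144 at a B-statistic above 1.5, 855 and 459 with only the arrays numbered 2 and 3, and 563 lower with array weights. Called genes were 64.0% higher as reported, 47.9% (1491 lower) after quantile normalization again, 48.6% (1453 lower) after median centring, and 48.9% and 75.0% without eEF1A replicates 2 and 3, while the median of all genes moved by at most 0.06. Deviations from the group means correlated at -0.012 and -0.043 between arrays of the same replicate number. The deviations of the 2 eEF1A arrays mirror each other, so this check has little room to show pairing. With the replicate block, 774 genes were called higher and 437 lower, and the succinate and allantoin lists had 0 rises and the nitrogen catabolite repression list 0 falls.

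The list of the succinate end had 1 rise as reported, 3 after quantile normalization again, 2 with limma-trend, 0 at a B-statistic above 1.5, 0 with the arrays numbered 2 and 3, 1 to 5 with an array left out, and 0 to 1 falls with an array left out. Nitrogen catabolite repression had 1 rise after quantile normalization again, 1 with array weights and 0 at the B threshold, and its falls numbered 2 after either scaling, 0 with dim probe sets left out, limma-trend, the B threshold or the arrays numbered 2 and 3, and 1 to 2 with an array left out. The allantoin list had 0 rises after quantile normalization again, with array weights, at the B threshold and with the arrays numbered 2 and 3, and 0 to 4 with an array left out. The amino acid sensing list had 2 rises and 0 falls at the B threshold, 3 falls after quantile normalization again, and 1 to 2 falls with an array left out, and the proline list 0 falls at the B threshold and 1 to 3 with an array left out. GZF3 changed sign with an array left out, from -0.31 to 0.01 (without eEF1A replicates 2 and 3). Other list genes did so between the same refits, among them IDP2 (-0.28 and 0.27) and LSC1 (-0.16 and 0.24). LSC2 (-0.07 and 0.36) and SDH4 (-0.23 and 0.05) changed sign too. Where an array is left out of the eEF1A group, the single array left is assumed to vary like the controls. The cause of these changes was not tested. Single list, neighbour and marker genes were counted as unchanged in 1275 of their refits, lost a call in 37 and gained one in 27. Unchanged here includes a change of sign in genes that did not pass and whose reported difference was smaller than their spread within groups. LSC1, for example, was 0.04 as reported and -0.16 without eEF1A replicate 2.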
